A study of Homo sapiens with 6 samples.

Results

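Receptor chains and feedback inhibitors of the interleukin-6 cytokine family were followed in HepG2, an established human liver cancer cell line, with and without knockdown of STAT3. The set was defined by gene name and holds 10 genes of the 27452 rows of the count table: the receptor genes IL6ST, IL6R, LIFR, OSMR and IL11RA, and the inhibitor genes SOCS1, SOCS2, SOCS3, SOCS7 and CISH. All 10 had a row. RNA of 3 libraries with a STAT3 short hairpin RNA (shRNA, a transcript that the cell turns into a small RNA directed against the matching messenger) and of 3 libraries with a control shRNA was sequenced. All were grown in DMEM with fetal bovine serum, and the labels name no added cytokine. They give no hairpin sequence and no number of clones, and they do not say whether libraries 1 to 3 of a group are separate cultures. A p-value here is set against the spread of those libraries, and that spread may be only technical. What the hairpin did and what else differs between the lines cannot be told apart.

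Cytokines of the interleukin-6 family signal through gp130, the shared receptor chain encoded by IL6ST. IL6R and IL11RA encode chains that bind their cytokine and then recruit gp130, whereas LIFR and OSMR encode chains that pair with gp130 and signal with it. Janus kinases bound to these chains phosphorylate STAT3, which enters the nucleus and switches on genes that include SOCS3. The SOCS proteins and CISH bind activated receptors, kinases or their adaptors and dampen the signal, and several are themselves products of STAT-activated genes, forming a feedback loop. In hepatocytes the pathway drives the acute-phase response.

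Library totals were 17694642 to 25862027 counts with STAT3 shRNA and 17408543 to 20133064 counts with control shRNA (exact two-sided permutation p = 0.6, n = 3 per group, smallest possible p 0.1). Genes with a count numbered 21307 to 22077 with STAT3 shRNA and 20141 to 21066 with control shRNA. TMM scaling factors, which correct for composition, were 1.03 to 1.04 and 0.943 to 0.986. Neither measure overlapped between the groups (exact permutation p = 0.1 each), and the mitochondrial share gave p = 0.9. STAT3, the targeted gene, averaged 35.6 ± 0.73 CPM (counts rescaled so that libraries of different depth can be compared) with STAT3 shRNA and 252 ± 8.67 CPM with control shRNA (SD, n = 3 each), so every library matched its label. Of 14 hepatocyte markers, 7 had a row here, and 4 of these 7 had at most 3 counts in every library, albumin (ALB) among them. The summed level of the 7 was 5.94 to 8.94 CPM with STAT3 shRNA and 2.27 to 3.95 CPM with control shRNA. Among those with more counts, HNF4A, a hepatocyte transcription factor, had 6.58 ± 1.41 and 1.51 ± 0.26 CPM, and transferrin (TF) had 0.806 ± 0.333 and 1.59 ± 0.875 CPM. AHSG, another of these 7, held 11, 4 and 5 counts with STAT3 shRNA and 0 in each control library. Of 6 mesenchymal markers 5 had a row, and their levels differed widely. Vimentin (VIM), the highest, averaged 834 ± 33.4 and 928 ± 23.4 CPM. COL1A1 averaged 15.3 and 40.3 CPM, DCN 14.6 and 11.9, PDGFRB 6.06 and 4.82, and THY1 0.514 and 0.11 (STAT3 shRNA first). The label of a liver line is thus not borne out by its defining markers, and the libraries are called HepG2 here only as labelled. In bulk RNA, fewer cells of a type and less RNA per cell cannot be told apart.

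Over all genes, the test of STAT3 shRNA against control shRNA (edgeR quasi-likelihood, Benjamini-Hochberg adjustment, called at an adjusted p under 0.05) called 17.5% of 14999, 9.39% higher and 8.13% lower. The split was 1408 higher and 1219 lower with TMM scaling, which corrects for composition, and 1916 and 874 when only totals were scaled. The number called was 2627, and it was 1462 without STAT3 shRNA library 1, 1475 without STAT3 shRNA library 3, 4098 without control library 1 and 1527 without control library 2. Of the 10 receptor and SOCS genes, 9 had enough counts to be tested, 3 were called lower and 1 higher. LIFR, OSMR and SOCS3 fell and SOCS7 rose. The count of 4 was 2 without STAT3 shRNA library 3, when OSMR and LIFR were not called. In 5 of the 9 tested genes the groups did not overlap in CPM, which held for 35.7% of all tested genes. The 10 genes were chosen with earlier results of these data known, so these counts are no evidence about the set.

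**Figure D1:**
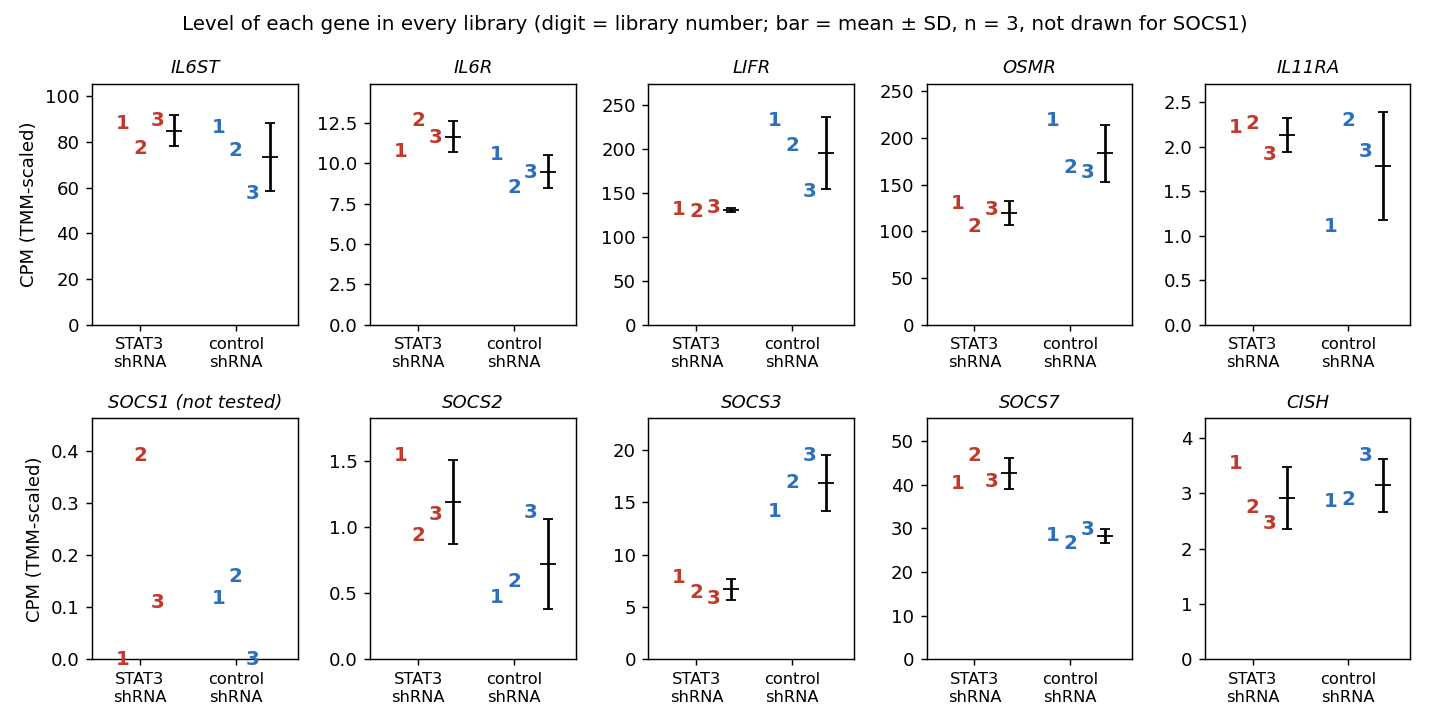
Level of the 10 genes in CPM (vertical axes, each from 0) in the STAT3 shRNA libraries (red, left) and control shRNA libraries (blue, right); digits are library numbers, and bars give the mean ± SD of 3 libraries. LIFR, OSMR and SOCS3 were lower and SOCS7 higher in all 3 STAT3 shRNA libraries than in any control library, and IL6ST, IL11RA, SOCS2 and CISH overlapped.

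Among the receptors, the chains that pair with gp130 fell while gp130 itself was not called. IL6ST, which encodes gp130, had 88.0, 77.1 and 89.5 CPM in STAT3 shRNA libraries 1 to 3 and 86.6, 76.4 and 57.5 CPM in control libraries 1 to 3. The groups overlapped, and control library 3 lay lowest of all. Its log2 fold change (STAT3 shRNA over control shRNA, here and below) was 0.21 with a 95% interval of -0.12 to 0.53 (edgeR adjusted p = 0.365).

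LIFR encodes the receptor chain for leukaemia inhibitory factor (LIF), which oncostatin M and ciliary neurotrophic factor also use. It had 131, 128 and 133 CPM with STAT3 shRNA and 232, 203 and 151 CPM with control shRNA. The STAT3 shRNA libraries lay close together, the control libraries were widely spread, and the groups did not overlap. The log2 fold change was -0.58 ± 0.142 (SE; edgeR adjusted p = 0.022), a 1.49-fold lower level. The call held without control library 1 (adjusted p = 0.0236) and without control library 3 (5.97e-04). It was lost in the other fits without a library, with an adjusted p of 0.0864 without STAT3 shRNA library 1, 0.0602 without library 2, 0.0808 without library 3 and 0.0913 without control library 2. It was 0.0569 with library totals.

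OSMR encodes the specific chain for oncostatin M, and also serves interleukin 31. It had 130, 105 and 123 CPM with STAT3 shRNA and 219, 168 and 163 CPM with control shRNA, again without overlap. Control library 1 was the highest. The log2 fold change was -0.62 ± 0.132 (edgeR adjusted p = 0.0117), a 1.54-fold lower level, and the adjusted p was 0.05001, just past the threshold, without STAT3 shRNA library 3. Of all tested genes, 6.89% fell further than OSMR and 7.85% further than LIFR.

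The cytokine-binding chains were not called. IL6R had 10.7, 12.7 and 11.6 CPM with STAT3 shRNA and 10.6, 8.49 and 9.44 CPM with control shRNA. The lowest STAT3 shRNA library was barely above the highest control library. Its log2 fold change was 0.30 with a 95% interval of -0.01 to 0.61 (edgeR adjusted p = 0.177). IL11RA stood low, at 2.22, 2.26 and 1.91 CPM with STAT3 shRNA and 1.11, 2.30 and 1.95 CPM with control shRNA. Those groups overlapped, and control library 1 held only 19 counts. IL11RA also overlaps GALT, which held 236 to 320 counts with STAT3 shRNA and 168 to 255 with control shRNA. The IL11RA log2 fold change was 0.25 with a 95% interval of -0.44 to 0.94 (edgeR adjusted p = 0.613). That interval leaves differences of either direction open.

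**Figure D2:**
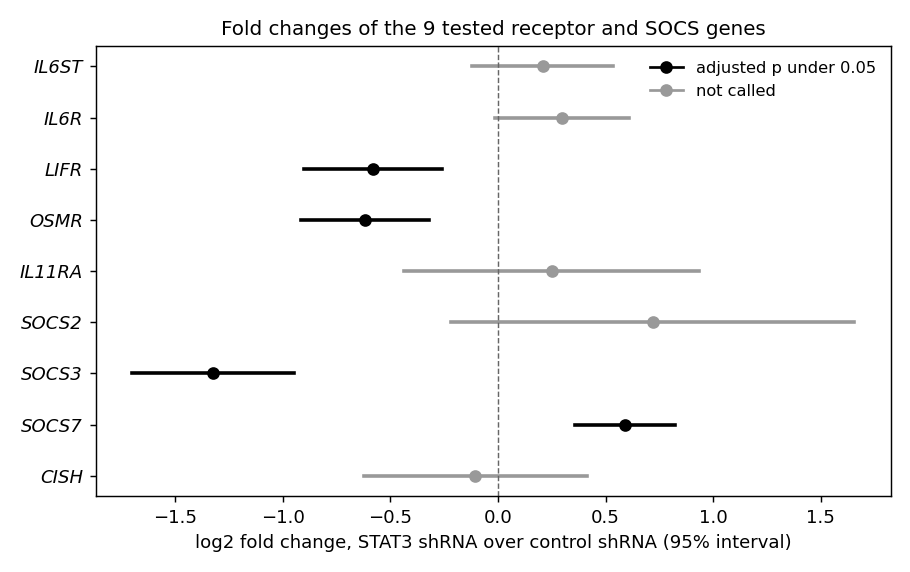
Log2 fold changes of the 9 tested genes, STAT3 shRNA over control shRNA (horizontal axis), with 95% intervals; black marks genes with an adjusted p under 0.05. Of the called genes SOCS3 lay farthest from 0 at -1.33, with OSMR at -0.62, SOCS7 at 0.59 and LIFR at -0.58; SOCS2, at 0.72, was not called, and the intervals of IL11RA and SOCS2 were the widest.

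Since CPM values carry the scaling and the spread between libraries with them, the receptors were also compared as ratios of counts within each library, which need no scaling. These ratios, 8 with those of the SOCS genes, were chosen after the data were seen. LIFR over IL6ST was 1.48, 1.67 and 1.49 with STAT3 shRNA and 2.68, 2.66 and 2.62 with control shRNA. The control ratios averaged 2.65 ± 0.0294 (SD, n = 3), although the CPM of both genes differed widely between the same 3 libraries. The ratio was 1.72-fold lower with STAT3 shRNA (exact two-sided permutation p = 0.1, the smallest 3 against 3 libraries can give; 0.16 adjusted over the 8 ratios).

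OSMR over IL6ST was 1.48, 1.36 and 1.37 with STAT3 shRNA and 2.53, 2.20 and 2.84 with control shRNA, a 1.79-fold lower ratio with the same exact p of 0.1. In each STAT3 shRNA library, then, both partner chains stood lower relative to gp130 than in any control library. LIFR and OSMR had already been called lower without overlap in CPM, and IL6ST had not. Lower ratios were thus likely beforehand and add no support to either call. LIFR over OSMR overlapped between the groups, at 1.004, 1.22 and 1.08 with STAT3 shRNA and 1.06, 1.21 and 0.925 with control shRNA (exact permutation p = 0.7, n = 3 per group). IL6R over IL6ST overlapped too, with means of 0.139 ± 0.0227 with STAT3 shRNA and 0.132 ± 0.028 with control shRNA (SD, n = 3 each; exact permutation p = 0.7). A ratio shows unequal change and not which of its genes changed.

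**Figure D3:**
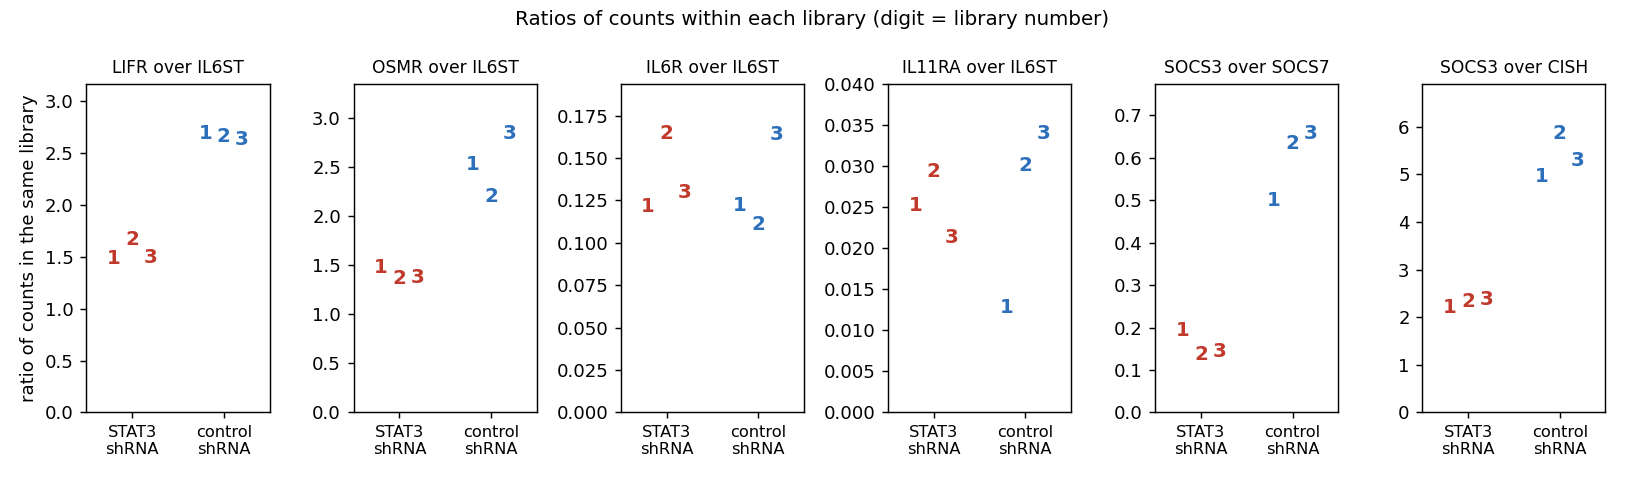
Ratios of counts of a pair of genes in the same library (vertical axes, each from 0), STAT3 shRNA in red on the left and control shRNA in blue on the right, with digits for library numbers. LIFR over IL6ST, OSMR over IL6ST, SOCS3 over SOCS7 and SOCS3 over CISH were lower in all 3 STAT3 shRNA libraries, while IL6R over IL6ST and IL11RA over IL6ST overlapped.

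Control libraries also differed by transcript length. The longest annotated transcripts of LIFR (10.1 kb), IL6ST (9.06 kb), SOCS7 (7.86 kb), IL6R (5.91 kb) and OSMR (5.54 kb) lie in the longest of 4 equal length classes of tested genes, which begins at 5.19 kb. Over that class the median log2 ratio of control library 1 to control library 3 was 0.23, and over the shortest class it was -0.23. LIFR, IL6ST, OSMR and IL6R were likewise higher in control library 1 than in control library 3, and SOCS7 was not, with 28.4 and 29.7 CPM. Between the groups the same classes had median log2 fold changes of 0.02 and -0.06. Of the longest class 12.1% were called higher and 9.98% lower with STAT3 shRNA, and of the shortest 6.19% and 6.41%. The part of this length pattern in the results was not tested.

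LIFR and OSMR lie close together on chromosome 5, with only 2 other tested genes between them, the antisense genes LIFR-AS1 and OSMR-AS1, neither of which was called. Among the 10 tested genes on each side of OSMR, 4 were higher and 2 lower, LIFR being one of the lower, and their median log2 fold change was 0.13. Around LIFR, counted the same way, 3 were higher and 4 lower, OSMR among the lower. Over all tested genes, 9.39% were higher and 8.13% lower, and the median log2 fold change was -0.01. Whether this region differs from the rest was not tested. DAB2, an endocytic adaptor on the far side of OSMR, averaged 377 ± 28.4 CPM with STAT3 shRNA and 179 ± 29.4 CPM with control shRNA (log2 fold change 1.08 ± 0.125, edgeR adjusted p = 4.66e-04). CARD6 was likewise higher (1.06 ± 0.1201), whereas SLC1A3, a glutamate transporter gene, was lower (-0.93). These neighbours were named after their values were seen. LIFR-AS1 overlaps LIFR on the opposite strand, and RICTOR overlaps OSMR. LIFR-AS1 held 85, 75 and 72 counts with STAT3 shRNA and 87, 66 and 84 with control shRNA, against 2443 to 3980 counts for LIFR. RICTOR held 2067, 1456 and 1416 counts with STAT3 shRNA and 1363, 1223 and 985 with control shRNA. Whether the counting used strand is not given in the sources used here, so reads of overlapping genes may have been mixed.

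**Figure D4:**
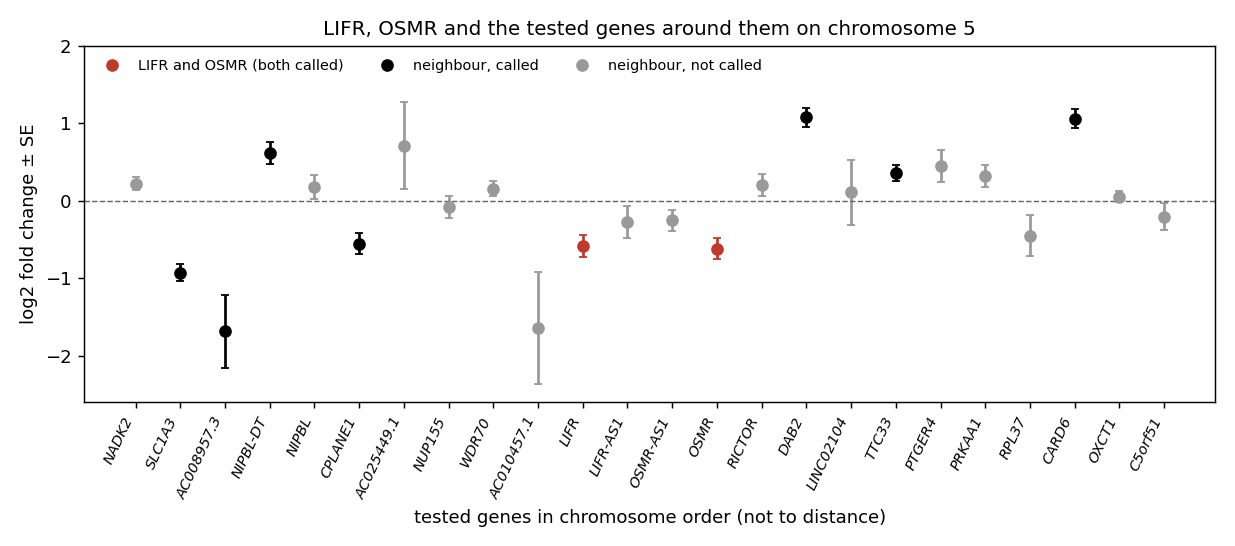
Log2 fold change ± SE (vertical axis) of LIFR, OSMR (red) and the tested genes around them in chromosome order, which is not to distance; black marks called neighbours. LIFR and OSMR stood at -0.58 and -0.62 with 2 uncalled antisense genes between them, and the called neighbours went both ways, DAB2 at 1.08 and SLC1A3 at -0.93.

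Among the inhibitors, SOCS3 fell and SOCS7 rose, and the others were not called or not tested. SOCS3, which binds gp130 and blocks the Janus kinases attached to it, had 7.82, 6.43 and 5.83 CPM with STAT3 shRNA and 14.2, 16.9 and 19.5 CPM with control shRNA. All STAT3 shRNA libraries lay far under the lowest control library. The log2 fold change was -1.33 ± 0.167 (edgeR adjusted p = 6.77e-04), a 2.51-fold lower level, and 1.75% of tested genes fell further. Over the 14 alternative fits it lay between -1.46 and -1.20 and was called in each.

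SOCS7, a larger and less studied member of the family that binds adaptor proteins, had 40.4, 46.7 and 40.6 CPM with STAT3 shRNA and 28.4, 26.6 and 29.7 CPM with control shRNA. The groups stood well apart. The log2 fold change was 0.59 ± 0.103 (edgeR adjusted p = 0.00425), a 1.51-fold higher level, called in all 14 alternative fits with 0.52 to 0.69. The count of SOCS3 for each SOCS7 count in the same library was 0.194, 0.138 and 0.144 with STAT3 shRNA. With control shRNA it was 0.499, 0.633 and 0.656. The ratio was 3.78-fold lower with STAT3 shRNA (exact permutation p = 0.1, n = 3 per group, 0.16 adjusted over the 8 ratios). These genes had already been called in opposite directions, so their ratio could hardly overlap and adds no support to either call.

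CISH and SOCS2, which are best known as inhibitors of growth hormone and prolactin type signalling through STAT5, were low in these libraries. CISH had 3.53, 2.75 and 2.45 CPM with STAT3 shRNA and 2.86, 2.88 and 3.69 CPM with control shRNA. The ranges largely coincided, and the log2 fold change was -0.10 with a 95% interval of -0.62 to 0.41 (edgeR adjusted p = 0.794). SOCS3 over CISH was 2.21, 2.34 and 2.38 with STAT3 shRNA and 4.96, 5.85 and 5.29 with control shRNA. This ratio was 2.32-fold lower with STAT3 shRNA (exact permutation p = 0.1, n = 3 per group, 0.16 adjusted over the 8 ratios). SOCS3 had already been called lower and CISH had not, so the ratio adds no support to the SOCS3 call. CISH shares its locus with the opposite-strand gene MAPKAPK3, which held 805 to 1454 counts, against 45 to 94 for CISH.

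SOCS2 had 41, 19 and 20 counts with STAT3 shRNA and 8, 11 and 21 with control shRNA, or 1.54, 0.933 and 1.09 CPM and 0.467, 0.587 and 1.11 CPM. Control library 3 reached the range of the STAT3 shRNA libraries. The log2 fold change was 0.72 with a 95% interval of -0.22 to 1.66 (edgeR adjusted p = 0.272). SOCS1, an inhibitor best known for restraining interferon gamma signalling, was too low to test, with 0, 8 and 2 counts with STAT3 shRNA and 2, 3 and 0 with control shRNA. A count of 0 in a library allows up to 3 counts, or 0.113 CPM in STAT3 shRNA library 1 and 0.158 CPM in control library 3, which covers counting error only.

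Promoter sequence of the receptor and SOCS genes was read to show where the palindrome that STAT dimers recognise occurs. RefSeq windows on GRCh38.p14, from 250 bases before to 50 bases after a transcript start, were found for 8 of the 10 genes, 12 windows in all. Windows were searched for TTCNNNGAA and for its form with 1 more base between the arms, each of which reads the same on both strands. Of 35116 windows, 7.66% held TTCNNNGAA at least once and 6.44% held the longer form, which no member's window held. The CISH window held TTCNNNGAA 4 times, a number reached in 7 windows of the whole table (0.0199%), and 2 of the 3 LIFR windows held it once. Shown 5′ to 3′ on the gene's strand, with matches in capitals, are CISH at chr3:50611725-50612024, LIFR at chr5:38595356-38595655 and at chr5:38557418-38557717, and SOCS3 at chr17:78360876-78361175 and at chr17:78359618-78359917, all on the minus strand.
CISH: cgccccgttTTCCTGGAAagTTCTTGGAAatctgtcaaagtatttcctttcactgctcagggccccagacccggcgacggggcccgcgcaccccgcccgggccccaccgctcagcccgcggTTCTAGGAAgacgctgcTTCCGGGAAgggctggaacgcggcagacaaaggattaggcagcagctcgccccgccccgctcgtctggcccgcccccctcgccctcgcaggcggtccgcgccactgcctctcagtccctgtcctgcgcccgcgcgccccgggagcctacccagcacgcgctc
LIFR, upstream start: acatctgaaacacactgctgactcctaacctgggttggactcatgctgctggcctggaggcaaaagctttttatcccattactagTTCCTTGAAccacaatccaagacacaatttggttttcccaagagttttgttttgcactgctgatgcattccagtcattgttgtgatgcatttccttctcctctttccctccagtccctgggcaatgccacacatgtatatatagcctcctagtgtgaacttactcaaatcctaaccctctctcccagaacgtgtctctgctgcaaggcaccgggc
LIFR, downstream start: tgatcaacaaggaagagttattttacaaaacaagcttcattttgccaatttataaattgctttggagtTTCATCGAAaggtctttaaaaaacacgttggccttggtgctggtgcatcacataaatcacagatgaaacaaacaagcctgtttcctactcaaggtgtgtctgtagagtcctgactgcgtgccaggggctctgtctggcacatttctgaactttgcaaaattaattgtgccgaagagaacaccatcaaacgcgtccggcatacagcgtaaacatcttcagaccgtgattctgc
SOCS3, upstream start: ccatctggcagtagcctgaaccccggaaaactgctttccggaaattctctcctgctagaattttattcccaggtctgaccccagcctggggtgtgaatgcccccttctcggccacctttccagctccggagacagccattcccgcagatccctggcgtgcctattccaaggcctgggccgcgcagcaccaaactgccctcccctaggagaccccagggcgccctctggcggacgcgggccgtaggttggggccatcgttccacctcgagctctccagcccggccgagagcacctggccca
SOCS3, downstream start: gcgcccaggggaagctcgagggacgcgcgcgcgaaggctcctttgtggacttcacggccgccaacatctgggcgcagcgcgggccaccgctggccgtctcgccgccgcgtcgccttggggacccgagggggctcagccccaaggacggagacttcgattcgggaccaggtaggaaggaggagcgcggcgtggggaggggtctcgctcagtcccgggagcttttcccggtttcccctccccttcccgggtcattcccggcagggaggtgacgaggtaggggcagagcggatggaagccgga
In the CISH window the matches begin at positions -241, -230, -129 and -112 relative to the start, and they read TTCCTGGAA, TTCTTGGAA, TTCTAGGAA and TTCCGGGAA. CISH, with the most matches, was not called, and SOCS3, with the largest fall of the set, had none in either window. LIFR fell and had a single match in each of the windows shown. A match is a run of letters and not a measured binding site, and the lack of one covers these 300 bases only. Whether matches and calls are related was not tested.

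To set the levels of the 10 genes side by side, CPM was divided by the length of the longest annotated transcript in kilobases. With STAT3 shRNA, OSMR led with 21.6 ± 2.31 CPM per kilobase, followed by LIFR with 13.0 ± 0.238, IL6ST with 9.37 ± 0.748, SOCS7 with 5.42 ± 0.46, SOCS3 with 2.45 ± 0.372 and IL6R with 1.97 ± 0.166 (SD, n = 3). With control shRNA, OSMR had 33.1 ± 5.54, LIFR 19.4 ± 4.08, IL6ST 8.12 ± 1.63, SOCS3 6.16 ± 0.975, SOCS7 3.60 ± 0.198 and IL6R 1.61 ± 0.175 CPM per kilobase. By the longest transcript, SOCS7 thus stood above SOCS3 with STAT3 shRNA and under it with control shRNA, without overlap in either group. IL6ST and SOCS3 overlapped with control shRNA, as did SOCS3 and IL6R with STAT3 shRNA. IL11RA, CISH, SOCS2 and SOCS1 were all under 1 CPM per kilobase in both groups, IL11RA and CISH not apart from each other. The oncostatin M and LIF receptor chains were therefore the most abundant of the set per length, above the shared chain, and the interleukin-6 binding chain was lower by a wide margin. Dividing by the mean transcript length in place of the longest raised all values (OSMR to 101 CPM per kilobase with control shRNA). Among control shRNA means it exchanged only CISH and IL11RA in order. By that length SOCS3 averaged 10.9 and SOCS7 9.25 CPM per kilobase with control shRNA, and their control libraries overlapped.

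The rest of the pathway was followed in 11 lists that together name 86 genes, of which 61 were tested, 10 were higher and 6 lower, or 26.2% called against 17.5% of all genes. Their median log2 fold change was -0.05, against -0.01 over all tested genes. The lists were chosen with earlier results of these data known, so a higher share called is no evidence about the pathway. Leaving out STAT3 shRNA library 1 lowered the 10 to 5, and leaving out STAT3 shRNA library 3 or control library 2 lowered it to 4.

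The ligand and receptor-shedding genes that were called were all higher. Of 4 tested ligand genes, 2 rose and 0 fell. LIF, the ligand of the LIFR chain, had 9.47, 10.5 and 9.70 CPM with STAT3 shRNA and 6.59, 7.21 and 6.70 CPM with control shRNA (log2 fold change 0.53 ± 0.131, edgeR adjusted p = 0.0221). LIF was thus higher in the libraries where its receptor chain was lower. EBI3, a subunit of interleukins 27 and 35, averaged 1.90 ± 0.443 and 0.694 ± 0.14 CPM (1.44 ± 0.336, adjusted p = 0.0177). IL6 itself was too low to test, with 2, 3 and 2 counts with STAT3 shRNA and 13, 10 and 6 with control shRNA. Both membrane proteases that shed receptors rose, ADAM10 (0.52 ± 0.131, adjusted p = 0.025) and ADAM17, which cleaves IL6R (0.45 ± 0.117, adjusted p = 0.0281).

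**Figure D5:**
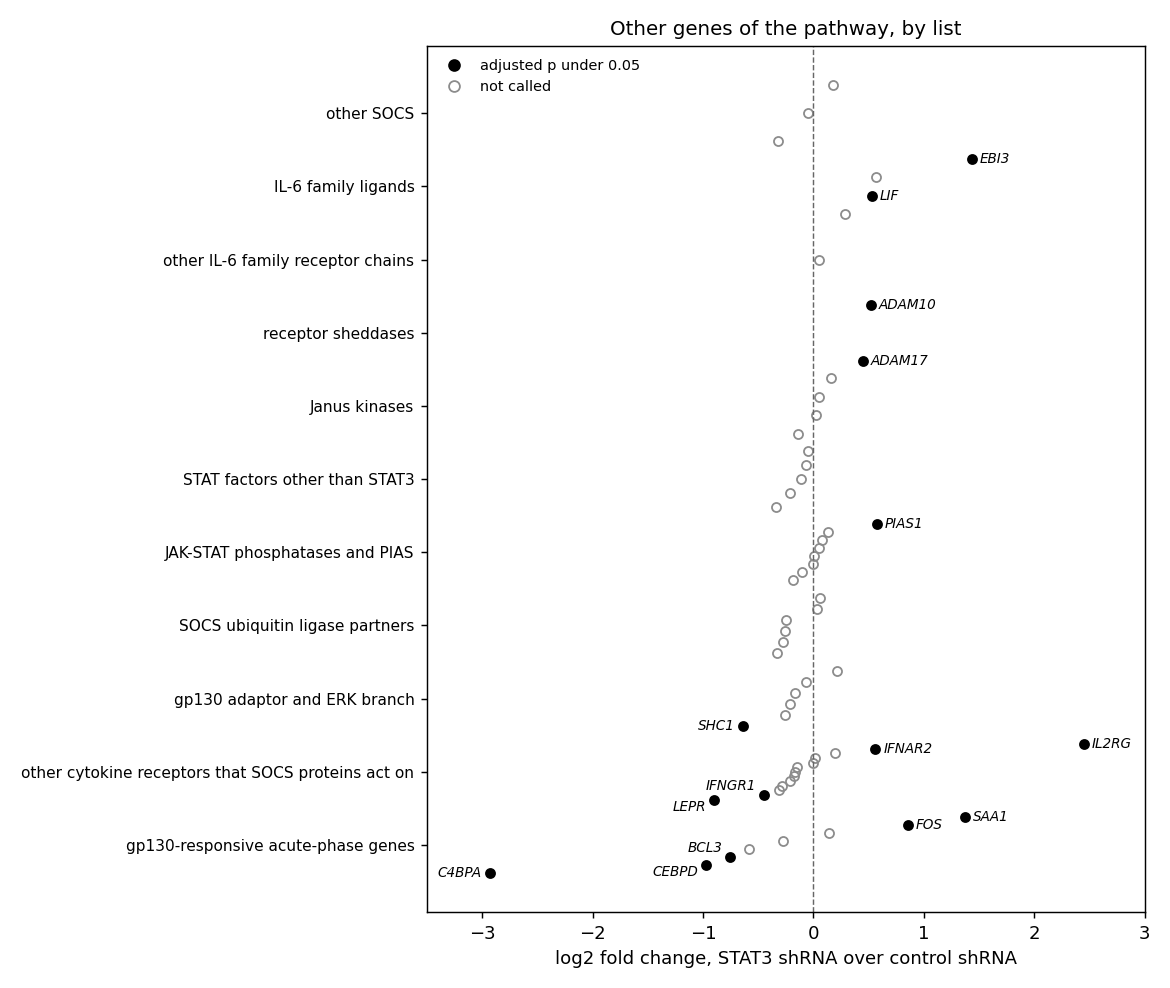
Log2 fold change, STAT3 shRNA over control shRNA (horizontal axis), of tested genes of 11 pathway lists (rows); filled and named points passed an adjusted p of 0.05. The higher genes include LIF, EBI3, ADAM10 and ADAM17, the lower ones include SHC1, CEBPD and C4BPA, and no Janus kinase, no other STAT gene and no SOCS ubiquitin ligase partner was called.

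These 5 calls held without control library 1 and without control library 3, with adjusted p up to 0.0428, and several were lost without another library. Without STAT3 shRNA library 3 the adjusted p was 0.0816 for LIF, 0.0702 for EBI3, 0.105 for ADAM10, 0.107 for ADAM17 and 0.0835 for PIAS1. Without control library 2 it was 0.0675, 0.0777, 0.103, 0.0684 and 0.0701 for the same genes. Without STAT3 shRNA library 1 it was 0.0734 for LIF, 0.107 for ADAM10, 0.12 for ADAM17 and 0.0826 for PIAS1, and without STAT3 shRNA library 2 it was 0.0737 for LIF, 0.0679 for EBI3 and 0.053 for ADAM17.

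Inside the cell, few components differed. None of 4 tested Janus kinases, 5 other STAT genes, 3 other SOCS genes and 6 partners of the SOCS ubiquitin ligase was called. One gene of each list, that with the highest CPM (not per length), is given as an example: JAK1, a kinase of gp130, averaged 154 CPM with STAT3 shRNA and 149 CPM with control shRNA, STAT6 174 and 202 CPM, SOCS4 40.4 and 35.8 CPM, and ELOB 119 and 144 CPM. Of 8 phosphatases and PIAS inhibitors, PIAS1, which restrains STAT factors, rose (0.58 ± 0.132, edgeR adjusted p = 0.0163). Of 6 genes of the adaptor and ERK branch, SHC1, an adaptor that links receptors to Ras, fell (-0.64 ± 0.0948, adjusted p = 0.00171) and was called in all 14 alternative fits.

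Other cytokine receptors went both ways, with 2 of 13 tested higher and 2 lower. IFNAR2, a chain of the type I interferon receptor, rose (0.56 ± 0.101, edgeR adjusted p = 0.00492). IL2RG, the common gamma chain, had 27, 15 and 24 counts with STAT3 shRNA and 1, 4 and 5 with control shRNA (adjusted p = 0.0122). All its control counts lay under the filter's minimum count of 10, so it was tested only because of its STAT3 shRNA counts. It could not be tested with a minimum mean of 1 CPM. The leptin receptor LEPR had 1.503, 1.47 and 2.02 CPM with STAT3 shRNA and 3.27, 2.94 and 3.11 CPM with control shRNA (adjusted p = 0.0288). IL2RG was not called without STAT3 shRNA library 1 (adjusted p = 0.0517) or 3 (0.0647) or control library 2 (0.0513). LEPR was not called without STAT3 shRNA library 1 (0.122) or 2 (0.0835), without control library 2 (0.0768) or 3 (0.06), or by DESeq2 (0.0517). IFNGR1, the remaining called gene and outside the naming rule, had an adjusted p of 0.0305 and lost its call in 8 of 14 alternative fits, among them all fits without a single STAT3 shRNA library.

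Among acute-phase and early genes that gp130 signalling is known to induce, 8 were tested, 2 rose and 3 fell, with a median log2 fold change of -0.43. CEBPD, a transcription factor of the acute-phase response, had 31.5, 40.7 and 31.8 CPM with STAT3 shRNA and 52.0, 70.6 and 81.8 CPM with control shRNA (-0.98 ± 0.172, edgeR adjusted p = 0.00452). The complement regulator C4BPA averaged 0.611 ± 0.294 and 4.66 ± 0.337 CPM (-2.93 ± 0.329, adjusted p = 3.88e-04). Its counts were low with STAT3 shRNA, at 15, 7 and 17, against 84, 80 and 91 with control shRNA. The count of 7 lay under the filter's minimum count of 10. In the main fit C4BPA was therefore tested only because of its control counts. FOS, an AP-1 gene, averaged 320 ± 25.3 and 176 ± 9.76 CPM (0.86 ± 0.0917, adjusted p = 2.99e-04). The other called genes, outside the naming rule, were BCL3, which was lower, and SAA1, which was higher. All 5 were called in every one of the 14 alternative fits. Listed responders of gp130 therefore moved in both directions in the libraries where SOCS3 was lower.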

How the data were processed

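Per the labels, total RNA of HepG2 lines made with shRNA was sequenced. The authors deposited whole-number counts per gene, with no normalization visible. Not given in the sources used here are the aligner, the counter, the strand setting, the build and the annotation. Groups and library numbers come from treatment labels and titles.

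The analysis used edgeR 4.0.16 in R 4.3.3: filterByExpr at its defaults (minimum count 10, minimum total 15), TMM scaling, and a two-sided quasi-likelihood test (robust dispersion) with group as the only term and adjustment over all 14999 tested genes. CPM uses TMM-scaled totals, an approach that takes most genes as unchanged. SE is the log2 fold change over the square root of F. Alternatives were other scalings and filters, DESeq2 1.42.0, non-robust dispersion, a block for library number, and leaving out each library.

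Lengths and gene order come from GENCODE 29, matched by identifier for 14373 tested genes. Libraries of a group differed by 4.20 to 43.0 chi-square per gene, so none repeats another. Named were all members, STAT3, up to 3 called genes per list with the smallest adjusted p, or, with none called, the one with the highest CPM, and the 2 genes nearest in pattern to each called member. A few genes of this rule and of the lists are not reported or plotted here. Members and lists were chosen with earlier results of these data known. Of the marker lists, intestinal markers summed to 4.81 to 6.32 CPM with STAT3 shRNA and 3.64 to 5.48 CPM with control shRNA, mesenchymal markers to 833 to 890 and 965 to 1012 CPM, leukocyte markers to 20.7 to 28.0 and 10.7 to 15.7 CPM, and endothelial markers to 1.28 to 1.74 and 1.21 to 1.76 CPM.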

Additional observations from a re-analysis of the deposited data

How the results depend on the processing

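STAT3, SOCS3 and SOCS7 kept their direction and their call in all 14 alternative fits. Leaving out 1 library at a time gave 1462 to 4098 called genes (796 to 2068 higher, 666 to 2030 lower), 2 to 4 called members (1 higher in each, 1 to 3 lower), 4 to 11 higher and 4 to 8 lower genes of the pathway lists, and a STAT3 log2 fold change of -2.84 to -2.78. CISH, never called, ranged from -0.27 to 0.03 and changed sign without STAT3 shRNA library 3 (0.00064) and without control library 3 (0.033). The cause was not tested. SOCS2 and IL2RG could not be tested with a minimum mean of 1 CPM.

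The labels do not say whether library numbers pair the libraries. Deviations from the group means of same-numbered libraries correlated at 0.28, 0.19 and -0.23 for numbers 1, 2 and 3. With 3 libraries per group these values are too few and too dependent to settle it. With number as a replicate block, 2278 genes and 4 members were called, and the LEPR (adjusted p = 0.0585) and IFNGR1 (0.0559) calls were lost.

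Depth limited SOCS1 and IL6, which had too few counts to be tested. SOCS2 and IL11RA, with under 60 counts in every library, had the widest intervals of the 9 tested members.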

Other observations

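For each called member, tested genes with the most similar log2 CPM over the 6 libraries were looked up. For LIFR they were VGLL3 (Pearson r = 0.997) and ENOX1 (0.996), for OSMR XRCC5 (0.996) and RAB18 (0.996), for SOCS3 PCGF1 (0.997), and for SOCS7 FOSL2 (0.999) and PRRX2 (0.997). With 6 libraries in 2 groups such values are common: 165 genes had an r over 0.95 with LIFR, 285 with OSMR, 476 with SOCS3 and 382 with SOCS7. The libraries share the group difference and their scaling, so these values describe likeness only.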
